A study of Mus musculus with 12 samples.

Results

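A set of 10 genes for neutrophil-attracting chemokines and epithelial defence proteins was followed across sorted mouse epithelium. They are Cxcl5, Cxcl1, Cxcl2, Cxcl16, Lcn2, Ltf, Nos2, Tnfaip3, Pigr and Wfdc2. The deposited count table holds 43432 genes, and the rows of these 10 were found by matching Ensembl IDs to GENCODE M21 symbols. All 10 were in the table and all 10 passed the filter on low counts. The 10 were chosen with earlier fold changes and per-library counts of the same 12 libraries in view, so their differences between groups are given as descriptions, without p-values.

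RNA was sequenced from live single EpCAM+ cells of Flare25 mice, an IL-25 reporter strain whose red fluorescence marks cells that express IL-25. All libraries come from this reporter strain, and the labels used here give no age or sex. Cells of the gallbladder (GB) and the proximal small intestine (SI) were divided by their reporter signal, with 3 libraries each: GB IL-25+ (GB-pos), GB IL-25- (GB-neg), SI IL-25+ (SI-pos) and SI IL-25- (SI-neg). The labels of the 6 gallbladder libraries list a treatment with HDM AF647 given 1 day before collection, those of the 6 intestinal libraries list none, and the protocol field calls all of them homeostatic. A difference between gallbladder and intestine therefore cannot be told apart from this treatment label. The labels do not say whether libraries of a group came from separate mice, so the spread between them may be technical.

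CXCL5, CXCL1 and CXCL2 are secreted chemokines that draw neutrophils through the receptor CXCR2, and epithelial cells make them when NF-κB signalling is switched on by cytokines or microbial products. CXCL16 is a membrane-bound chemokine for CXCR6+ lymphocytes. Lipocalin 2 (Lcn2) binds the siderophores with which bacteria collect iron, lactoferrin (Ltf) binds iron itself, and Nos2 is the inducible nitric oxide synthase. Tnfaip3 codes for A20, a ubiquitin-editing enzyme that restrains NF-κB. The polymeric immunoglobulin receptor (Pigr) carries dimeric IgA across the epithelium into bile and gut lumen, and Wfdc2 codes for a secreted protein with whey acidic protein domains. Tuft cells are the main epithelial source of IL-25, so the IL-25- fraction holds the other epithelial cells.

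Libraries held between 23703449 and 64736650 counts. Levels are given as CPM, the usual depth-normalised count, over library sizes scaled by TMM. A list of 10 tuft cell markers summed to between 23100 and 24510 CPM in GB-pos against 39.9 to 190 CPM in GB-neg, and to between 32830 and 40080 CPM in SI-pos against 87.1 to 259 CPM in SI-neg. A list of 5 gallbladder epithelium markers (Krt7, Krt19, Sox17, Muc1 and Spp1) summed to 673 to 915 CPM in GB-pos and to 6778 to 10550 CPM in GB-neg. Transcripts of the other tissue were seen in both IL-25- groups, with the highest enterocyte sum of the gallbladder in GB-neg 1: enterocyte markers in GB-neg 1 reached 5.38% of their level in SI-neg 3 (median of 10 markers), and Muc1, Spp1 and Sox17 stood in SI-neg 3 at 1.67%, 1.63% and 1.81% of their GB-neg 1 level. The labels do not say that these 2 libraries share material. Mitochondrial genes took 7.13% to 8.83% of counts in GB-pos and 11.2% to 25.0% in GB-neg, and 12.1% to 17.2% in SI-pos and 26.6% to 34.9% in SI-neg, and their part in the gate differences was not tested. The gallbladder libraries numbered 2, GB-pos 2 and GB-neg 2, stood apart from the others of their groups in several of the 10 genes, as described below.

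Cxcl5, Cxcl1 and Cxcl2 lie in 1 cluster on chromosome 5, at chr5:90759360-90761624, chr5:90891241-90893115 and chr5:90903871-90905938 on the + strand of GRCm38. The cluster spans 146.6 kb and the gap from Cxcl1 to Cxcl2 is 10.8 kb. Promoter windows from RefSeq on GRCm38.p6 were held for 7 of the 10 genes. The 9-base NF-κB-type motif GGAATTTCC, or its reverse complement GGAAATTCC, was present in the 250 bases upstream of the start in 3 of these 7, namely Cxcl1, Cxcl2 and Tnfaip3, and in 79 of all 27025 promoters (0.292%). Both strands were searched, and the letters were not present in the windows of Pigr, Lcn2, Wfdc2 and Ltf. A match is a description of letters and shows no binding. Parts of 3 windows are shown because Cxcl1 and Cxcl2 share a 14-base stretch, GGGAATTTCCCTGG, that contains the motif and was present in no other promoter of the table. That stretch runs from -71 to -58 of the RefSeq start in Cxcl1 and from -97 to -84 in Cxcl2. The Tnfaip3 motif runs from -24 to -16 of 1 of its 2 RefSeq starts, and the window of its other start does not hold it. By GENCODE M21 the printed Tnfaip3 window lies inside the gene (chr10:19000910-19015657, - strand), downstream of its 5′ end and outside its exons. Each printed window is 120 bases of sequence that GENCODE M21 annotates as no exon, 5′ to 3′ on the gene's strand, with the shared stretch or the motif in capitals:
Cxcl1 (chr5:90891121-90891240, + strand): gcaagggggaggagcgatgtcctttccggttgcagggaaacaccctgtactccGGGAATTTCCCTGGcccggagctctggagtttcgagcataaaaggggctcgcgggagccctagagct
Cxcl2 (chr5:90903751-90903870, + strand): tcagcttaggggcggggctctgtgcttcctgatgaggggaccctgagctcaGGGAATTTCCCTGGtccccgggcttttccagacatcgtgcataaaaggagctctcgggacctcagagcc
Tnfaip3 (chr10:19015411-19015530, - strand): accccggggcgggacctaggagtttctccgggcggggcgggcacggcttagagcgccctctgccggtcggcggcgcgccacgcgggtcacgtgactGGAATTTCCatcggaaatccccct

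Cxcl5 (ENSMUSG00000029371) was abundant in 2 of the 12 libraries. Its level was 0.0581, 48.6 and 0.0269 CPM in GB-pos 1 to 3, against 3.94, 613 and 0.682 CPM in GB-neg 1 to 3. Both libraries numbered 2 were far above the other libraries of their groups, and the IL-25+ and IL-25- groups overlapped. In intestine it ranged from 0.0755 to 0.284 CPM in SI-pos and from 0.237 to 0.334 CPM in SI-neg, with sums of 12 and 28 counts per group. The mean was 16.2 ± 28.1 CPM in GB-pos and 206 ± 353 CPM in GB-neg (SD, n = 3 each), so that the SD exceeded the mean in both. The fitted log2 fold change of IL-25+ over IL-25- gallbladder was -3.67 ± 2.51 (SE). Without both libraries numbered 2 the gallbladder groups held 3 counts in GB-pos and 302 counts in GB-neg, an IL-25- over IL-25+ ratio of 70.6 (95% counting interval 23.9 to 344). The mean levels were then 0.0425 CPM in GB-pos and 2.31 CPM in GB-neg. With GB-neg 2 alone left out the direction turned, to a log2 fold change of 2.80. Intervals cover counting error only. In these bulk libraries, fewer cells of a type and less RNA per cell cannot be told apart. Between tissues, GB-neg exceeded SI-neg without overlap, by a log2 fold change of 9.54 ± 3.38 (SE), and by 3.09 without both libraries numbered 2. GB-pos overlapped with SI-pos at 6.64 ± 3.23, and without both libraries numbered 2 the direction turned, with 3 counts in GB-pos and 12 counts in SI-pos, an SI over GB ratio of 3.76 (1.02 to 20.8).

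Cxcl1 (ENSMUSG00000029380) was seen mainly in IL-25- gallbladder. The level was 0.378, 0.111 and 0 CPM in GB-pos 1 to 3, against 3.68, 14.6 and 0.0650 CPM in GB-neg 1 to 3. GB-neg 2 was again the highest of its group, but GB-pos 2 was not, with 3 counts. In intestine the gene had 0 counts in SI-pos and 2 counts in SI-neg, both of them in SI-neg 3. The fitted log2 fold change in gallbladder was -5.20 ± 1.94 (SE) and -3.30 without both libraries numbered 2, and the groups overlapped because GB-neg 3 held only 2 counts. Over IL-25- cells, the GB over SI ratio was 287 (79.3 to 2377, counting interval against 2 counts), or 133 (36.5 to 1106) without both libraries numbered 2. In IL-25+ cells the gallbladder sum of 16 counts was at least 4.12-fold higher than 3 counts over the intestinal group would give.

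Cxcl2 (ENSMUSG00000058427) followed the same library pattern at lower levels. It stood at 0, 1.04 and 0 CPM in GB-pos 1 to 3, against 0.421, 6.44 and 0.130 CPM in GB-neg 1 to 3. The libraries numbered 2 held 28 of the 28 counts of GB-pos and 218 of the 252 counts of GB-neg. In intestine it had 20, 0 and 3 counts in SI-pos 1 to 3, against 0, 2 and 0 counts in SI-neg 1 to 3, so most of its intestinal reads were in 1 IL-25+ library. The fitted gallbladder log2 fold change was -2.75 ± 2.18 (SE), and 0.30 without GB-neg 2 alone. Without both libraries numbered 2 the level was at least 7.95-fold lower in GB-pos (0 counts, taken as 3 over the group) than in GB-neg (34 counts). GB-neg exceeded SI-neg without overlap, at a ratio of 95.5 (26.2 to 793), or 17.2 (4.40 to 148) without both of them. The SI-pos over SI-neg ratio was 15.6 (3.85 to 136, counting interval), the opposite direction to the gallbladder, but the intestinal groups overlapped.

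**Figure D1:**
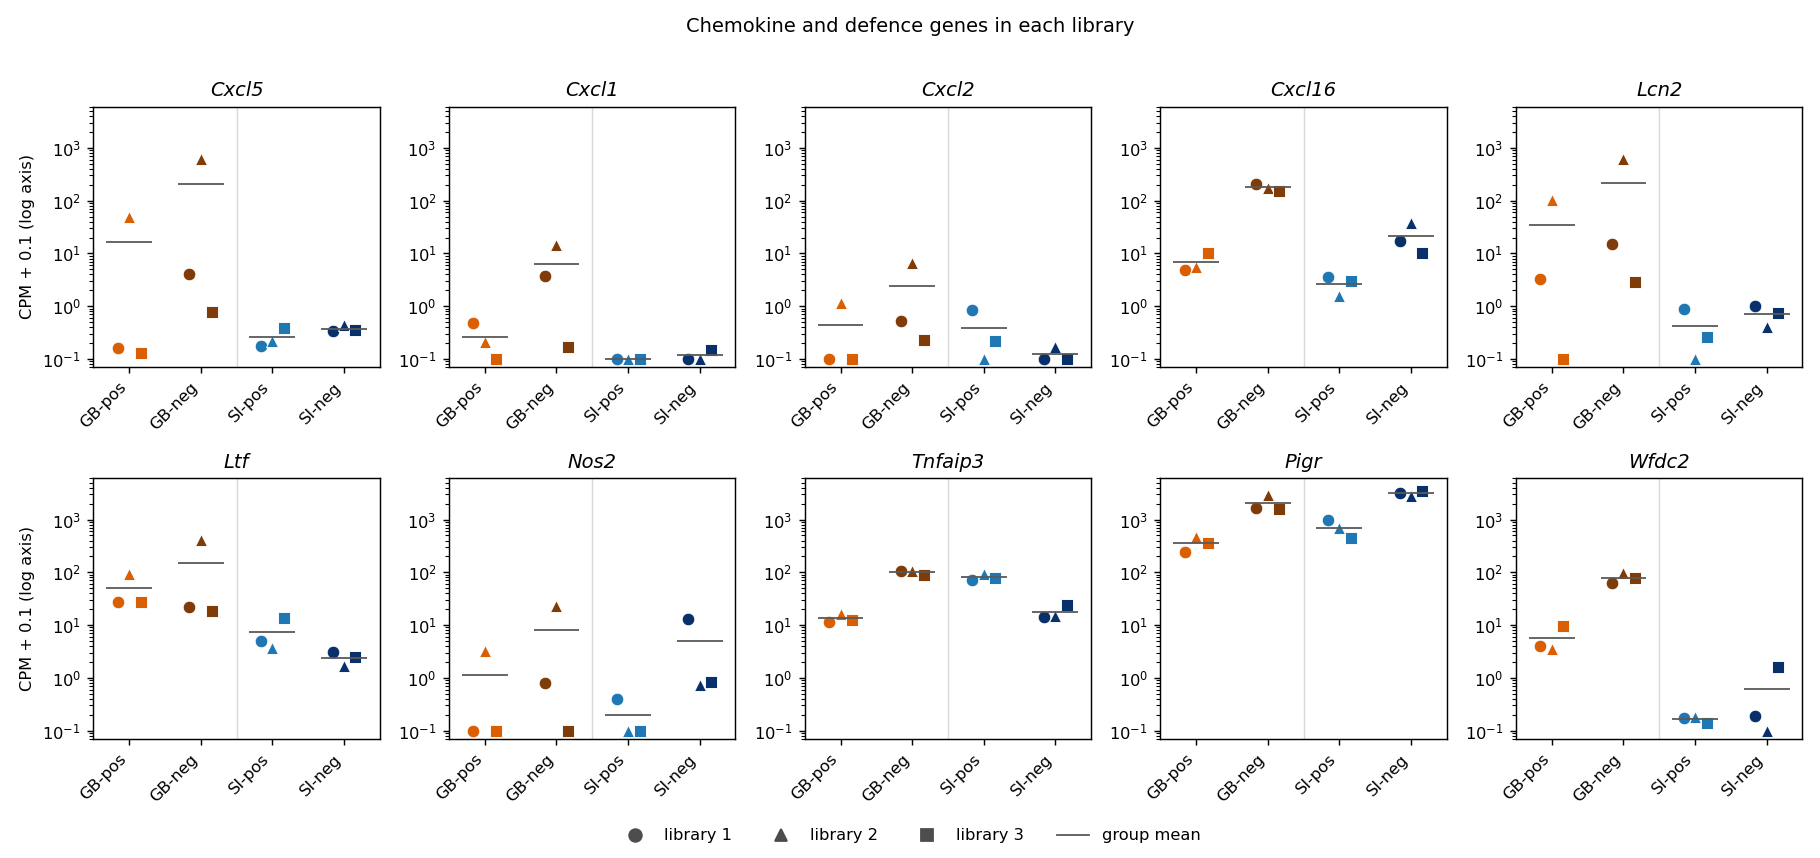
Level of each gene in each library, as CPM + 0.1 on a log axis; colour gives the group, symbol the library number and the line the group mean (n = 3). Cxcl5 reached 48.6 CPM in GB-pos 2 and 613 CPM in GB-neg 2, while Cxcl16, Tnfaip3, Pigr and Wfdc2 in gallbladder form separate IL-25+ and IL-25- clusters.

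Cxcl16 (ENSMUSG00000018920, chr11:70453983-70459984, - strand) was lower in IL-25+ than in IL-25- cells of both tissues. It was 4.65, 5.46 and 10.3 CPM in GB-pos 1 to 3, against 204, 177 and 153 CPM in GB-neg 1 to 3. Intestine showed 3.43, 1.48 and 2.84 CPM in SI-pos 1 to 3, against 17.4, 37.4 and 10.2 CPM in SI-neg 1 to 3. The IL-25+ and IL-25- groups did not overlap in either tissue, and no single library stood 4-fold above its mates. The fitted log2 fold change of IL-25+ over IL-25- was -4.71 ± 0.52 in gallbladder and -3.06 ± 0.49 in intestine (SE). The gallbladder exceeded the intestine in IL-25- cells by a log2 fold change of 3.04 ± 0.48, and in IL-25+ cells by 1.39 ± 0.46, and the groups did not overlap in either gate. Its order of levels was thus GB-neg, SI-neg, GB-pos and SI-pos by mean, with SI-neg 3 at 10.2 CPM just below GB-pos 3 at 10.3 CPM. Zmynd15 overlaps Cxcl16 on the opposite strand, and since these libraries do not mark strand, reads of the overlap cannot be assigned; Zmynd15 held at most 253 counts in any library.

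Lcn2 (ENSMUSG00000026822, chr2:32384633-32388252, - strand) resembled Cxcl5. The level was 3.11, 101 and 0 CPM in GB-pos 1 to 3, against 14.7, 623 and 2.79 CPM in GB-neg 1 to 3. The libraries numbered 2 were again highest in both gates, and the groups overlapped. Intestinal levels were 0 to 0.792 CPM in SI-pos and 0.30 to 0.890 CPM in SI-neg. The fitted gallbladder log2 fold change was -2.62 ± 2.21 (SE), and it was -2.5 without both libraries numbered 2, where the means were 1.55 CPM in GB-pos and 8.74 CPM in GB-neg. Without GB-neg 2 alone it was 1.98. In IL-25- cells the gallbladder exceeded the intestine without overlap, by 8.44 ± 2.93 on the log2 scale, and by 3.87 without both libraries numbered 2. The highest intestinal IL-25- level, 0.890 CPM, was below the lowest gallbladder one.

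Ltf (ENSMUSG00000032496, chr9:111019271-111042767, + strand) was present in IL-25+ cells of both tissues. It was 27.6, 93.3 and 27.5 CPM in GB-pos 1 to 3, against 22.3, 413 and 18.0 CPM in GB-neg 1 to 3. Outside both libraries numbered 2, the GB-pos libraries were slightly above the GB-neg libraries, with means of 27.6 and 20.2 CPM. The fitted gallbladder log2 fold change of -1.61 ± 1.12 (SE) became 0.44 without both of them and 1.29 without GB-neg 2 alone, so its sign rested on GB-neg 2. In intestine Ltf was 4.91, 3.65 and 13.5 CPM in SI-pos 1 to 3, against 3.0, 1.57 and 2.39 CPM in SI-neg 1 to 3. The intestinal groups did not overlap, with a fitted log2 fold change of 1.66 ± 1.15 (SE) that was not called over all genes. Both gates of the gallbladder were above the intestine without overlap, by 2.75 ± 1.17 in IL-25+ cells and 6.02 ± 1.36 in IL-25- cells on the log2 scale, and by 1.94 and 3.16 without both libraries numbered 2.

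Nos2 (ENSMUSG00000020826, chr11:78920787-78960254, + strand) had a single high library in each IL-25- group. The level was 0, 3.08 and 0 CPM in GB-pos 1 to 3, against 0.688, 23.1 and 0 CPM in GB-neg 1 to 3. In intestine it was 0.302, 0 and 0 CPM in SI-pos 1 to 3, against 13.0, 0.634 and 0.736 CPM in SI-neg 1 to 3. The high libraries were those numbered 2 in gallbladder and those numbered 1 in intestine. The gallbladder groups overlapped, with a fitted log2 fold change of -2.96 ± 2.50 (SE), and 1.53 without GB-neg 2 alone. The intestinal groups did not overlap, at -5.50 ± 2.91 on sums of 8 and 487 counts, and this was not called. Without both libraries numbered 2, Nos2 had 0 counts in GB-pos and 49 counts in GB-neg, all of them in GB-neg 1, at least 11.5-fold lower in GB-pos against 3 counts over the group. The tissues overlapped in IL-25- cells, at a GB over SI log2 fold change of 0.73 ± 2.32, which was -3.73 without both libraries numbered 2.

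**Figure D2:**
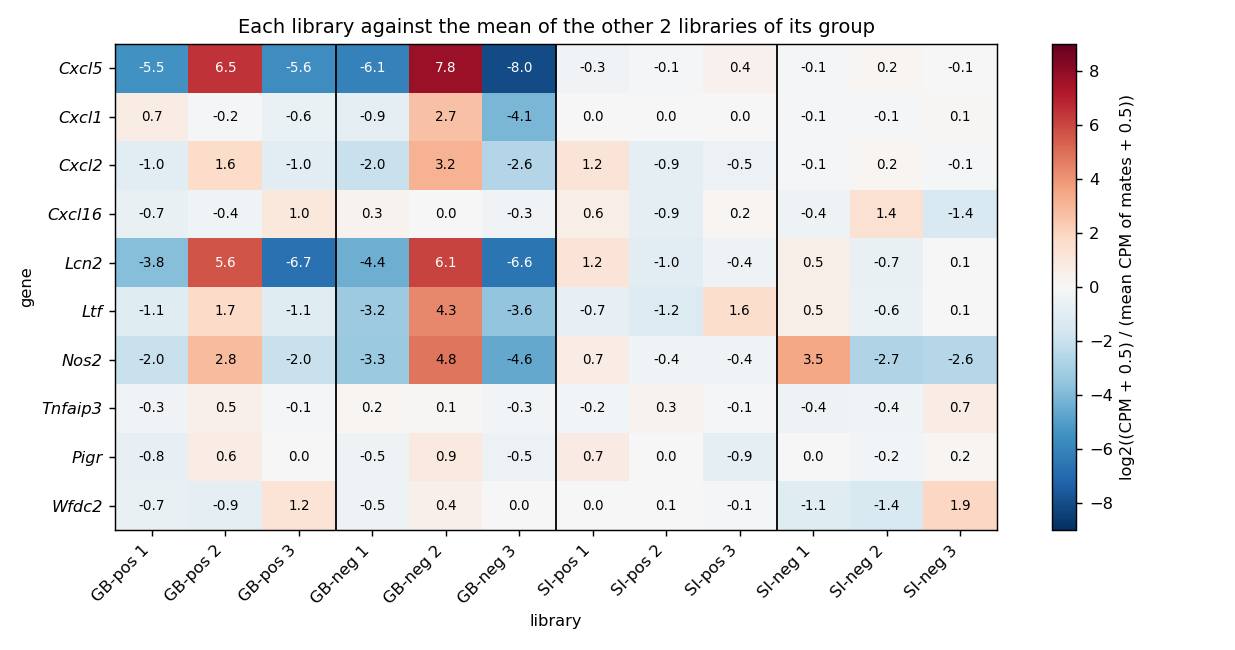
Each library against the mean of the other 2 libraries of its group, as log2((CPM + 0.5) / (mean CPM + 0.5)); rows are genes, columns are libraries and vertical lines divide the groups. GB-pos 2 and GB-neg 2 stand at 6.50 and 7.77 for Cxcl5 and at 5.63 and 6.08 for Lcn2, while Tnfaip3 and Pigr stay within 1 in all 12 libraries.

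The high values of the libraries numbered 2 were counted over all genes tested. In GB-neg 2, 225 of 16636 genes (1.35%) were at least 4-fold above both other GB-neg libraries, and 5 of the 10 members were among them (Cxcl5, Cxcl2, Lcn2, Ltf and Nos2). In GB-pos 2, 621 genes (3.73%) were, and 4 members were among them (Cxcl5, Cxcl2, Lcn2 and Nos2). Both conditions held together for 33 genes (0.198%), which include these 4 members. The same count was 74 genes (0.445%) for the gallbladder libraries numbered 1 and 13 (0.0781%) for those numbered 3, with 0 members in each. It was 27, 30 and 29 genes for the intestinal libraries numbered 1 to 3, with Nos2 among the 27. Over the whole table the gallbladder libraries numbered 2 thus did not share the most such genes. None of the members met the criterion in a gallbladder library numbered 1 or 3, where it held for 624 and 434 genes in GB-pos 1 and 3 and for 994 and 158 genes in GB-neg 1 and 3. This is a description: the members were proposed with per-library values known.

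GB-pos 2 was also set against GB-neg 2 gene by gene, as the 2 gallbladder libraries that stood apart in several members. The numbers name libraries and were not taken to pair them, so the other same-numbered percents serve as a description. Cxcl5 stood in GB-pos 2 at 7.93% of its GB-neg 2 level, Cxcl2 at 16.1%, Lcn2 at 16.2%, Ltf at 22.6% and Nos2 at 13.3%. The 5 gallbladder epithelium markers stood there at 7.61% to 62.7%, with a median of 12.9%, against medians of 9.60% and 9.51% for the libraries numbered 1 and 3. Cxcl5, Cxcl2, Lcn2, Ltf and Nos2 thus lay within the range of these markers, as did Tnfaip3 at 15.55% and Pigr at 16.2%. The upper end of that range was Sox17 alone, and the next marker, Krt7, stood at 17.55%, below Ltf. Cxcl1 at 0.763%, Cxcl16 at 3.09% and Wfdc2 at 3.57% lay below the range. The part that such transcripts have in the GB-pos 2 values was not tested.

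**Figure D3:**
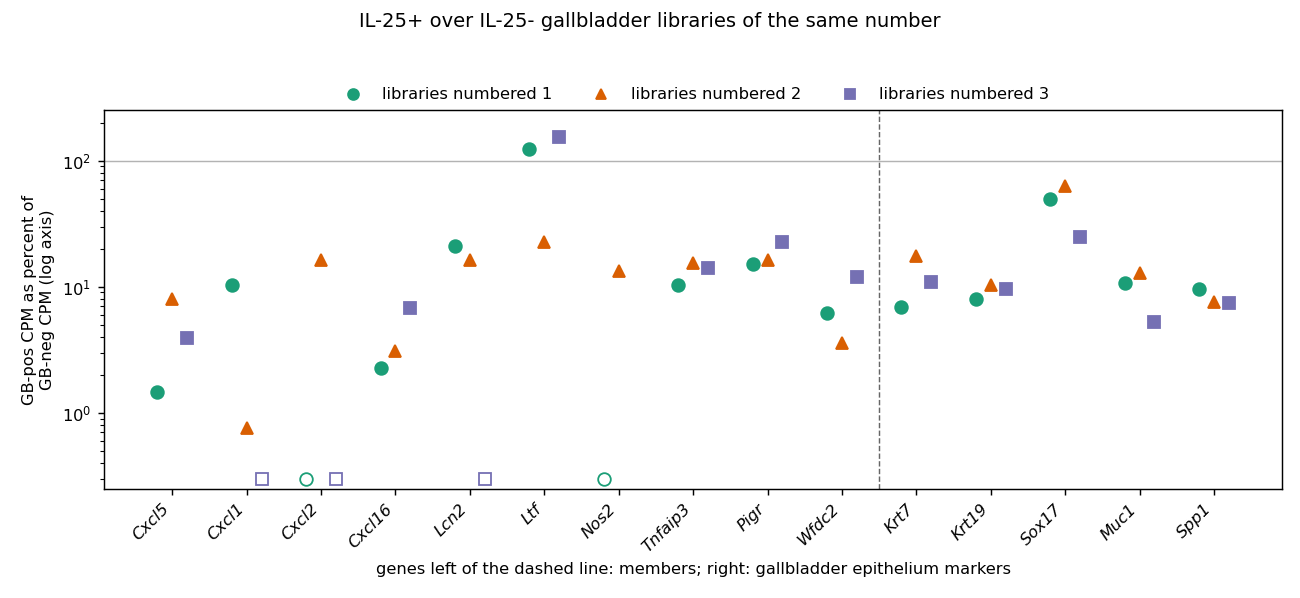
Level in each GB-pos library as a percent of the same-numbered GB-neg library, on a log axis, for the 10 genes (left of the dashed line) and 5 gallbladder epithelium markers (right). Hollow symbols at the base mark 0 counts in GB-pos. Libraries numbered 2 place Cxcl2, Lcn2, Nos2, Tnfaip3 and Pigr at 13.3% to 16.2%, just above the marker median of 12.9%.

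A list of 11 neutrophil markers was checked because the chemokines act on neutrophils and because Lcn2 and Ltf are also neutrophil granule genes. S100a8, Ly6g and Elane had 0 counts in all 12 libraries. The list summed to 0.232, 9.24 and 0 CPM in GB-pos 1 to 3, against 0.140, 0.650 and 0.747 CPM in GB-neg 1 to 3, and to 0 to 1.02 CPM in SI-pos against 0 to 0.934 CPM in SI-neg. GB-pos 2 was the highest library for this list, through Csf3r at 5.86 CPM and Cxcr2 at 2.93 CPM, with 4 of the 11 genes detected in GB-pos. A list of 9 macrophage markers summed to 24.5, 2.64 and 3.42 CPM in GB-pos 1 to 3, against 46.4, 21.3 and 38.7 CPM in GB-neg 1 to 3, so the libraries numbered 2 were the lowest in both gates. Lcn2 at 623 CPM in GB-neg 2 thus stood beside a neutrophil sum of 0.650 CPM. Itgam, an integrin chain of neutrophils and macrophages that was on no list and was named after its values were seen, stood at 0.639, 17.3 and 1.97 CPM in GB-pos 1 to 3, against 9.85, 211 and 15.0 CPM in GB-neg 1 to 3. The part of these cells in the values of the libraries numbered 2 was not tested.

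The remaining marker lists gave the following ranges. T cell markers summed to 0 to 0.0808 CPM in GB-pos and 0.0325 to 1.02 CPM in GB-neg, and to 2.97 to 51.6 CPM in SI-pos and 4.39 to 60.6 CPM in SI-neg. B and plasma cell markers summed to 25.7 to 29.0 CPM in GB-pos and 1.12 to 1.30 CPM in GB-neg, and to 0.281 to 4.14 CPM in SI-pos and 0.334 to 1.30 CPM in SI-neg. Stromal markers were at 0 to 0.784 CPM in GB-pos, 0.473 to 1.15 CPM in GB-neg, 0.491 to 0.851 CPM in SI-pos and 3.29 to 5.77 CPM in SI-neg. Enterocyte, goblet and Paneth cell markers were all highest in SI-neg, at 10390 to 18900, 3995 to 58820 and 515 to 4331 CPM, so the IL-25- intestinal group is a mixture of these cells. The part of these cells in the gate and tissue differences was not tested.

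Tnfaip3 (ENSMUSG00000019850, chr10:19000910-19015657, - strand) differed between the gates in opposite directions in the 2 tissues. In gallbladder it was 11.2, 16.4 and 12.4 CPM in GB-pos 1 to 3, against 108, 105 and 88.5 CPM in GB-neg 1 to 3. In intestine it was 72.2, 94.1 and 76.7 CPM in SI-pos 1 to 3, against 14.2, 14.8 and 23.9 CPM in SI-neg 1 to 3. No library overlapped with the other gate in either tissue, and the libraries within a group were close together, including those numbered 2. The fitted log2 fold change of IL-25+ over IL-25- was -2.92 ± 0.27 in gallbladder and 2.20 ± 0.26 in intestine, a difference of -5.11 ± 0.38 (SE). GB-neg and SI-pos were the high groups, with means of 101 ± 10.5 and 81.0 ± 11.6 CPM, and GB-pos and SI-neg the low ones, with means of 13.3 ± 2.7 and 17.7 ± 5.44 CPM (SD, n = 3 each).

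Pigr (ENSMUSG00000026417, chr1:130826684-130852249, + strand) was the highest of the 10 genes per kilobase of exon in every library and lower in IL-25+ cells of both tissues. The level was 247, 472 and 359 CPM in GB-pos 1 to 3, against 1632, 2913 and 1594 CPM in GB-neg 1 to 3. In intestine it was 961, 697 and 450 CPM in SI-pos 1 to 3, against 3114, 2813 and 3419 CPM in SI-neg 1 to 3. The gates did not overlap in either tissue, and the tissues overlapped within each gate. The fitted log2 fold change of IL-25+ over IL-25- was -2.51 ± 0.33 in gallbladder and -2.15 ± 0.33 in intestine (SE), a difference of -0.36 ± 0.44. GB-pos stood below SI-pos by a log2 fold change of -0.97 ± 0.31, and GB-neg below SI-neg by -0.61 ± 0.31. The first of these 2 was called, and it was called in 9 of 21 alternative fits, while the second was called in 0 of 21.

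Wfdc2 (ENSMUSG00000017723, chr2:164562413-164568510, + strand) was a gallbladder gene in these libraries. It was 3.86, 3.42 and 9.32 CPM in GB-pos 1 to 3, against 62.8, 95.7 and 78.1 CPM in GB-neg 1 to 3. Intestine had 2, 2 and 1 counts in SI-pos 1 to 3, against 3, 0 and 58 counts in SI-neg 1 to 3. The gallbladder gates did not overlap, at a fitted log2 fold change of -3.83 ± 0.96 (SE), which was -3.43 without both libraries numbered 2. The SI-neg 3 level of 1.47 CPM was 2.35% of that in GB-neg 1, beside 1.67%, 1.63% and 1.81% for Muc1, Spp1 and Sox17 in the same pair of libraries. With GB-neg 1 and SI-neg 3 left out, Wfdc2 held 5 counts in SI-pos against 3 counts in SI-neg, a ratio of 1.39 (0.271 to 8.98), where the fit over all libraries had given -2.97 ± 1.30. The GB over SI difference was 6.32 ± 1.27 in IL-25+ cells and 7.19 ± 1.14 in IL-25- cells on the log2 scale, without overlap in either gate.

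Counts of calls over the 10 genes are read against the whole table, where a call is a Benjamini-Hochberg adjusted p under 0.05 in edgeR's quasi-likelihood test over 16636 genes. In gallbladder IL-25+ against IL-25- cells, 0 of the 10 were called higher and 4 lower (Cxcl16, Tnfaip3, Pigr and Wfdc2), where 12.4% of all genes were called higher and 14.4% lower. In intestine, 1 was called higher (Tnfaip3) and 2 lower (Cxcl16 and Pigr), where 14.5% and 12.8% of all genes were. The median fitted log2 fold change of the 10 was -2.94 in gallbladder and -1.53 in intestine, against -0.15 and -0.07 over all genes tested. Because the genes were chosen on such values, these counts carry no test. Wfdc2 in gallbladder was no longer called in 4 of 22 alternative fits, namely without GB-pos 1, without GB-pos 2, without both libraries numbered 2, or when genes of low count were kept. The other 6 gate calls were made in all 22.

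Between the tissues, IL-25+ cells had 2 of the 10 called higher in gallbladder (Cxcl16 and Wfdc2) and 2 lower (Tnfaip3 and Pigr), where 10.5% of all genes were called higher and 13.1% lower. IL-25- cells had 5 called higher in gallbladder (Cxcl1, Cxcl16, Ltf, Tnfaip3 and Wfdc2) and 0 lower, where 13.0% and 11.7% of all genes were. Cxcl5, Cxcl2 and Lcn2 in IL-25- cells showed no overlap between gallbladder and intestine but were not called. For Cxcl2 this rested on 4 counts in GB-neg 3 against 2 counts in SI-neg 2. For Cxcl1 it rested on 2 counts in GB-neg 3 against 2 counts in SI-neg 3. The share of all genes without overlap was not counted, so a lack of overlap is a description here and above. Of the tissue calls, Cxcl16 in IL-25+ cells was made in 8 of 21 alternative fits. Its losses include the fits without GB-pos 2 or 3, GB-neg 2 or 3, any 1 SI-pos library or SI-neg 1. Pigr in IL-25+ cells was called in 9 of 21. Its losses include the fits without GB-pos 1 or 3, SI-pos 1 or 2, or SI-neg 1 or 3. In IL-25- cells Cxcl1 was called in 12 of 19 alternative fits. Its losses include the fits without GB-neg 2, any 1 SI-neg library or both libraries numbered 2. Cxcl1 was also not called without GB-neg 1 and SI-neg 3 together. Ltf in IL-25- cells was called in 18 of 21, and the fit without SI-neg 2 was among its losses. The difference between the gate effects of the 2 tissues was called for 0 of the 10 upwards and for 1 downwards (Tnfaip3), where 3.63% of all genes were called higher and 5.6% lower. Cxcl16, at -1.65 ± 0.64, and Ltf, at -3.27 ± 1.61, were not called. The share of higher calls in this last comparison was 39.3% of all called genes, against 51.2% with RLE size factors, which moved the median of all genes by 0.164 on the log2 scale.

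**Figure D4:**
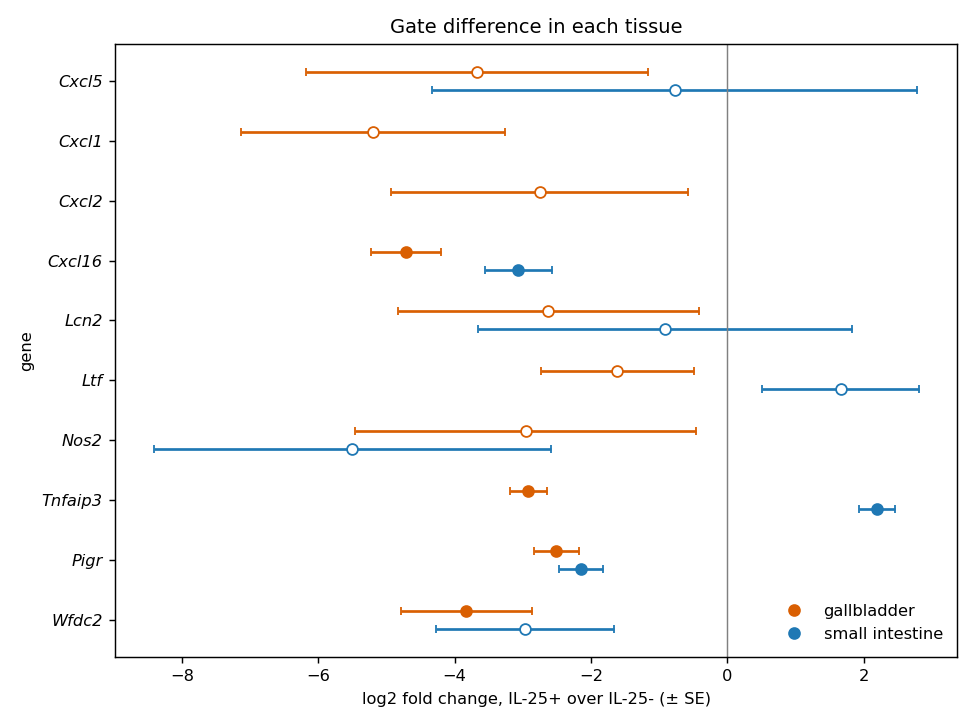
Fitted log2 fold change of IL-25+ over IL-25- cells with its SE, in gallbladder (above) and small intestine (below) for each gene; filled symbols were called over all genes. Cxcl1 and Cxcl2 are not drawn for intestine, where a group held 3 counts or fewer, and Tnfaip3 lies at -2.92 in gallbladder and 2.20 in intestine.

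Levels can be ranked between genes only per length of exon. In GB-neg 2 the order was Pigr at 724, Cxcl5 at 329, Lcn2 at 237.5 and Ltf at 119.8 CPM per kilobase, followed by Wfdc2 at 84.0, Cxcl16 at 58.5, Tnfaip3 at 14.6, Cxcl1 at 7.78, Nos2 at 5.24 and Cxcl2 at 3.11. In GB-neg 1 Pigr, at 405.5 CPM per kilobase, was followed by Cxcl16 at 67.5, Wfdc2 at 55.1 and Tnfaip3 at 14.9, while Cxcl5 was at 2.12. GB-neg 3 had Pigr at 396, Wfdc2 at 68.5 and Tnfaip3 at 12.3, with Cxcl5 at 0.366 CPM per kilobase. Cxcl5 was thus the second of the 10 genes in 1 IL-25- gallbladder library and below Tnfaip3 in the other 2.

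The genes most like each member over the 12 libraries were found among 8111 non-member genes by Pearson's r of log2 CPM. The points share libraries, tissue and gate, so r is a description. Wfdc2 was closest to Muc1 (r = 0.978) and Spp1 (0.977), both of them gallbladder epithelium markers. Cxcl16 was closest to Ahnak (0.98), Pigr to Nlrp6 (0.969), an inflammasome sensor of gut epithelium, and Tnfaip3 to AA986860 (0.961). Cxcl5 was closest to Insig1 (0.866), as was Cxcl2 (0.852). Lcn2 was closest to Abcc4 (0.890), which was the second for Cxcl5 (0.820), Cxcl1 to Irf2bp2 (0.907), then Il1rn (0.879), and Ltf to Zadh2 (0.886), then complement C3 (0.884). Nos2 had its nearest genes at 0.842, Sft2d2 and Dus3l. Among the members themselves r was highest between Cxcl5 and Lcn2 (0.906) and between Cxcl5 and Cxcl2 (0.853), while Tnfaip3 and Pigr were at 0.196.

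The wider pathway was read from 7 lists of other genes, 92 of which were tested. In gallbladder, 8 of the 92 were higher and 31 lower in IL-25+ than in IL-25- cells (39 in all, and 24 without both libraries numbered 2), and in intestine 12 were higher and 19 lower. These are 8.7% and 33.7% of the list genes in gallbladder, where 12.4% and 14.4% of all genes were called, and 13.0% and 20.7% in intestine, where 14.5% and 12.8% were. The share of higher calls was thus near that of all genes in intestine and somewhat below it in gallbladder. Without both libraries numbered 2, calls over all genes in the gallbladder gate comparison fell too, from 4456 to 3156. For tissue, 17 were higher in gallbladder and 16 lower in IL-25+ cells (18.5% and 17.4%, against 10.5% and 13.1% of all genes), and 21 higher and 11 lower in IL-25- cells (22.8% and 12%, against 13.0% and 11.7%). All adjusted p values in the next paragraphs are from edgeR's quasi-likelihood test over all genes. The lists and naming rules were chosen with earlier results of these data known, and most named genes were picked for a low adjusted p. These p values therefore describe the genes and are no independent test of them.

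Chemokines for other cells were lower or not called in the IL-25+ gate. Of 12 tested, 4 were lower and 0 higher in gallbladder (Cxcl10, Cxcl17, Ccl28 and Cx3cl1), and 3 lower and 0 higher in intestine (Ccl6, Ccl28 and Cx3cl1). The lower shares were 33.3% and 25.0%, against 14.4% and 12.8% of all genes. Cx3cl1, the membrane-bound chemokine for CX3CR1+ cells, averaged 8.84 ± 1.45 CPM in GB-pos and 115 ± 17.6 CPM in GB-neg (SD, n = 3 each), a log2 fold change of -3.70 ± 0.24 (SE, adjusted p = 3.12e-07). In intestine it averaged 14.4 ± 1.32 CPM in SI-pos and 63.4 ± 7.02 CPM in SI-neg, at -2.14 ± 0.22 (adjusted p = 1.54e-05). Cxcl10, which draws CXCR3+ T cells, had 1 count in GB-pos against 270 in GB-neg (adjusted p = 0.019). The GB-neg over GB-pos ratio was 196 (34.8 to 7759). The Cxcl10 call was lost without GB-pos 1, GB-pos 3 or both libraries numbered 2 (adjusted p = 0.0653, 0.0615 and 0.0593). It was also lost without GB-neg 1 and SI-neg 3 (adjusted p = 0.0577). In intestine the Ccl6 call was lost without SI-pos 1, SI-pos 2 or SI-neg 2 (adjusted p = 0.0508, 0.0544 and 0.0934). Ccl25, which directs lymphocytes to the small intestine, was lower in gallbladder in both gates, by a log2 fold change of -4.34 ± 0.84 in IL-25+ cells and -5.06 ± 0.87 in IL-25- cells (adjusted p = 0.00428 and 0.00205). Of 8 other genes of neutrophil chemokine signalling, only Cxcr2 and the scavenging receptor Ackr3 passed the filter, and neither was called between gates. Ackr3 had 183 counts in GB-pos against 2 in SI-pos, a ratio of 70.7 (19.3 to 588; adjusted p = 0.00769), and 1338 counts in GB-neg against 1 in SI-neg.

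Receptors upstream of these genes split by chain. Of 17 tested, 1 was higher and 8 lower in gallbladder IL-25+ cells, and 2 higher and 9 lower in intestinal IL-25+ cells. The lower shares were 47.1% and 52.9%, against 14.4% and 12.8% of all genes. Il22ra1, the chain that gives epithelium its response to IL-22, averaged 0.0572 ± 0.0695 CPM in GB-pos and 20.5 ± 5.04 CPM in GB-neg, at a log2 fold change of -8.33 ± 0.68 (SE, adjusted p = 2.25e-06). In intestine Il22ra1 was also lower in IL-25+ cells, at -2.33 ± 0.46 (adjusted p = 0.00239). Its partner chain Il10rb went the other way, at 61.6 ± 7.47 CPM in GB-pos and 12.1 ± 1.35 CPM in GB-neg (2.35 ± 0.22, adjusted p = 7.25e-06) and at 75.0 ± 9.79 CPM in SI-pos and 26.9 ± 3.10 CPM in SI-neg (1.48 ± 0.22, adjusted p = 0.00026). Il6st, the shared signalling chain of the IL-6 family, was lower in SI-pos than in SI-neg (-1.56 ± 0.23, adjusted p = 0.000304) and higher in GB-neg than in SI-neg (2.16 ± 0.24, adjusted p = 3.86e-05). It was also lower in GB-pos than in GB-neg (-1.23 ± 0.23, adjusted p = 0.00157). Among the IL-17 receptor chains, Il17rc and Il17re were called lower in IL-25+ cells of both tissues, while Il17ra was higher in SI-pos than in SI-neg (1.54 ± 0.26, adjusted p = 0.00065) and not called in gallbladder.

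Among 24 tested NF-κB factors, regulators and targets, 3 were higher and 6 lower in gallbladder IL-25+ cells (higher: Tnip1, Cyld and Otulin), and 4 were higher and 3 lower in intestinal ones (higher: Nfkbia, Otulin, Zc3h12a and Tax1bp1). The shares were 12.5% higher and 25.0% lower in gallbladder, against 12.4% and 14.4% of all genes, and 16.7% and 12.5% in intestine, against 14.5% and 12.8%. All but the lower share in gallbladder were near those of all genes. Nfkbiz, which codes for the nuclear cofactor IκBζ, was lower in both tissues, at 84.3 ± 21.2 CPM in GB-pos and 427 ± 116 CPM in GB-neg (log2 fold change -2.34 ± 0.25, adjusted p = 1.65e-05) and at 51.7 ± 5.29 CPM in SI-pos and 130 ± 16.1 CPM in SI-neg (-1.33 ± 0.24, adjusted p = 0.00112). Rel, an NF-κB subunit, was lower in gallbladder IL-25+ cells, at 1.70 ± 0.421 CPM in GB-pos and 20.7 ± 2.53 CPM in GB-neg (-3.60 ± 0.44, adjusted p = 6.32e-05). In intestine Rel was at 0.56 ± 0.40 (adjusted p = 0.33). Tax1bp1, an adaptor protein of A20, averaged 1050 ± 98.8 CPM in SI-pos and 352 ± 9.95 CPM in SI-neg (1.58 ± 0.17, adjusted p = 1.74e-05), while its gallbladder value was 0.35 ± 0.16 (adjusted p = 0.126).

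Of 9 tested inflammatory cytokines, 3 were lower in gallbladder IL-25+ cells (Il18, Il33 and Lif; 33.3%, against 14.4% of all genes) and 0 were called in intestine. Il33 averaged 0.0929 ± 0.112 CPM in GB-pos and 2.02 ± 1.20 CPM in GB-neg (log2 fold change -4.49 ± 0.82, adjusted p = 0.00121). It was lower in gallbladder than in intestine in both gates, at -6.60 ± 0.87 in IL-25+ cells and -3.78 ± 0.71 in IL-25- cells (adjusted p = 0.000152 and 0.00193). Tnf, a soluble inducer of NF-κB that was named after its values were seen, was not called in either gate comparison (adjusted p = 0.258 in gallbladder and 0.902 in intestine). Its level was 1.02, 7.87 and 0.0269 CPM in GB-pos 1 to 3, against 5.38, 34.4 and 2.40 CPM in GB-neg 1 to 3, with the libraries numbered 2 highest in both gates.

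Of 14 tested genes for other epithelial defence proteins, 2 were higher and 6 lower in gallbladder IL-25+ cells, and 4 higher and 3 lower in intestinal ones. The higher share in gallbladder, 14.3%, was near the 12.4% of all genes, and the lower share was 42.9% against 14.4%. In intestine the shares were 28.6% and 21.4%, against 14.5% and 12.8%. Duox2, which makes hydrogen peroxide at the mucosal surface, was lower in both tissues, by -3.27 ± 0.53 in gallbladder and -2.65 ± 0.51 in intestine (adjusted p = 0.000781 and 0.00261). Dmbt1, a secreted scavenger protein that binds bacteria, averaged 4045 ± 1492 CPM in GB-pos and 45660 ± 11140 CPM in GB-neg (-3.50 ± 0.59, adjusted p = 0.00103). It was also lower in SI-pos than in SI-neg (-2.47 ± 0.56, adjusted p = 0.00699). Chil1, a chitinase-like protein, was higher in IL-25+ cells of both tissues. It averaged 18.3 ± 5.48 CPM in SI-pos and 0.0648 ± 0.0344 CPM in SI-neg (8.02 ± 1.41, adjusted p = 0.00113). In gallbladder it averaged 22.5 ± 7.11 CPM in GB-pos and 1.14 ± 1.705 CPM in GB-neg (4.31 ± 1.13, adjusted p = 0.0135). Of 14 tested partners of the members, 2 were higher and 4 lower in gallbladder IL-25+ cells, and 2 higher and 1 lower in intestinal ones. The shares were 14.3% higher and 28.6% lower in gallbladder, against 12.4% and 14.4% of all genes. In intestine they were 14.3% and 7.14%, against 14.5% and 12.8%, so the higher shares were near those of all genes. Adam10, the protease that sheds CXCL16, was lower in GB-pos than in GB-neg (-1.16 ± 0.20, adjusted p = 0.000911). It was higher in SI-pos than in SI-neg (0.75 ± 0.20, adjusted p = 0.0142). The intestinal Adam10 call was lost without SI-pos 3 (adjusted p = 0.0889) and without GB-neg 1 and SI-neg 3 (adjusted p = 0.054). Slc22a17, described as a receptor for lipocalin 2, averaged 18.5 ± 2.99 CPM in GB-pos and 0.928 ± 0.708 CPM in GB-neg (4.30 ± 0.77, adjusted p = 0.00113). Slc7a1, a transporter of arginine, the substrate of Nos2, was lower in SI-pos than in SI-neg (-1.82 ± 0.32, adjusted p = 0.00103). It was also lower in GB-pos than in GB-neg (-1.31 ± 0.32, adjusted p = 0.00793).

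**Figure D5:**
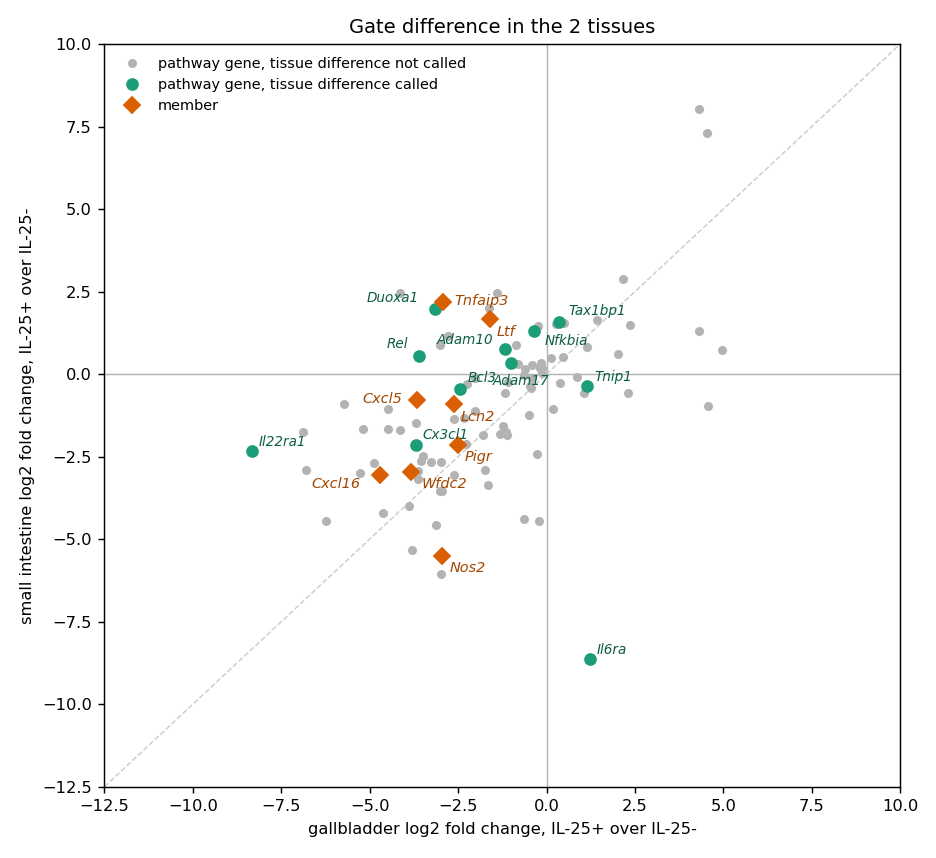
Fitted log2 fold change of IL-25+ over IL-25- cells in gallbladder (x axis) and in small intestine (y axis) for 92 pathway genes (circles) and 8 of the 10 members (diamonds; Cxcl1 and Cxcl2 are left out for low intestinal counts); the dashed line marks equal values. The 11 pathway genes whose gate effect was called different between tissues are named, among them Il22ra1 at -8.33 in gallbladder and -2.33 in intestine.

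For 11 of the 92 pathway genes the gate effect was called different between the tissues, 2 upwards (Tnip1 and Il6ra) and 9 downwards (Cx3cl1, Rel, Nfkbia, Bcl3, Tax1bp1, Il22ra1, Duoxa1, Adam10 and Adam17). These are 2.17% and 9.78% of the list genes, against 3.63% and 5.6% of all genes. The count was 7 without both libraries numbered 2, where interaction calls over all genes fell from 1536 to 1055. The gallbladder minus intestine difference was -4.16 ± 0.59 for Rel (adjusted p = 0.000739), and -6.00 ± 0.79 for Il22ra1 (adjusted p = 0.000438). Duoxa1, the maturation factor of Duox1, was named after its values were seen. It had the same pair of signs as Tnfaip3, with -3.15 ± 0.70 in gallbladder and 1.96 ± 0.66 in intestine (difference -5.11 ± 0.96, adjusted p = 0.00467). Adam10 also had both signs, at a difference of -1.91 ± 0.29 (adjusted p = 0.00107).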

How the data were processed

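Per the labels' protocols, live EpCAM+ cells were sorted by the reporter's red fluorescence, mRNA was bead-selected, amplified with the NuGen Ovation V2 kit, made into Nextera XT libraries, which do not mark strand, and read as single 50 bp ends. The authors deposited raw counts per Ensembl gene. The submitters' processing notes name STAR 2.7.2b, DESeq2 1.26 and GRCm38; the counting tool, its strand setting and its annotation are not given in the sources used here. Of the table's genes, 42548 matched a GENCODE M21 symbol and 884 did not, and 11 columns that belong to no listed sample were not used.

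From the deposited counts, genes passing filterByExpr (minimum count 10; 16636 genes) were fitted with edgeR 4.0.16 (TMM, robust quasi-likelihood, R 4.3.3) over all 12 libraries with a mean per group, two-sided, with Benjamini-Hochberg adjustment over all genes and a threshold of 0.05. The gates were compared within each tissue and the tissues within each gate, and the 2 gate effects with each other. SE is the log2 fold change divided by the square root of F. Folds against a group of 0 counts used 3 counts over the group, which in 1 library is 0.0463 to 0.127 CPM, and 95% exact intervals of count ratios; both cover counting error only. Replicate libraries differed beyond sampling noise (lowest chi-square per degree of freedom 49.2), so none was merged. The fit was also run on simulated counts in which genes were changed in GB-pos only and no library was set apart from its group. That run covered the GB gate comparison alone. It does not bear on the other comparisons or on the libraries numbered 2. The pathway genes named are, from every list, the 2 called genes of lowest adjusted p per gate comparison and the 1 per tissue comparison, with some left out; likeness used non-member genes with a mean of at least 3 log2 CPM (prior count 2). A further gallbladder epithelium marker is not reported here and was left out of its list. The 10 genes, the 7 pathway lists, the 10 marker lists and the rules were chosen with earlier results of these data known. As alternatives, fits were repeated with DESeq2 1.42.0, limma-voom (limma 3.58.1), RLE size factors, no filter, a filter of 5 CPM in 3 libraries, a replicate block, the compared groups alone, and each library left out; leaving out both gallbladder libraries numbered 2, or GB-neg 1 with SI-neg 3, was added after seeing the data.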

Additional observations from a re-analysis of the deposited data

Results flagged for a closer look

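The gate effect differed between the tissues by the interaction term of the edgeR fit, adjusted over all genes, for Tnfaip3 and for 11 pathway genes. Tnfaip3 and the 5 of the 11 that the naming rule also picked in a gate or tissue comparison are given here. The gallbladder minus intestine difference of log2 fold changes was -5.11 for Tnfaip3 (-2.92 in gallbladder, 2.20 in intestine), whose part in the selection of the genes makes it a description. It was -6.00 for Il22ra1 (-8.33 in gallbladder, -2.33 in intestine, adjusted p = 0.000438). Rel stood at -4.16 (-3.60 in gallbladder, 0.56 in intestine, adjusted p = 0.000739). Adam10 stood at -1.91 (-1.16 in gallbladder, 0.75 in intestine, adjusted p = 0.00107). Cx3cl1 was lower in IL-25+ cells of both tissues and more so in gallbladder, at -1.56 (-3.70 in gallbladder, -2.14 in intestine, adjusted p = 0.00571). Tax1bp1 stood at -1.23 (0.35 in gallbladder, 1.58 in intestine, adjusted p = 0.00467).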

How the results depend on the processing

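With 3 libraries per group, most member values with wide spread depend on single libraries: over the alternatives the gallbladder gate log2 fold change ran from -12.16 to 2.80 for Cxcl5, -7.12 to 1.98 for Lcn2, -11.15 to 1.53 for Nos2, -9.38 to 0.30 for Cxcl2, -2.47 to 1.29 for Ltf and -6.79 to -3.30 for Cxcl1. DESeq2 gave no adjusted p for Cxcl5, Lcn2, Ltf and Nos2. With 0 counts in SI-pos and 2 in SI-neg, a gate difference of Cxcl1 in intestine was not detectable at this depth. RLE size factors moved the median of all genes by -0.124 in the SI gate comparison, 0.107 between tissues in IL-25+ cells and 0.164 in the interaction. No called value of the report changed direction under an alternative. Counts that moved by over 1.5 times were 6832 genes called in the SI gate comparison under limma-voom (4529 as reported), 2344 genes in the interaction under DESeq2 (1536), 2 members between tissues in IL-25+ cells under limma-voom and without a filter (4), 2 members in the interaction under the block nested in tissue (1), and, for pathway genes, 17 in the interaction under DESeq2, 7 there and 24 in the GB gate comparison without both gallbladder libraries numbered 2 (11 and 39). Over all genes that last setting called 1055 in the interaction and 3156 in the GB gate comparison (1536 and 4456 as reported).

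Leaving out each library in turn, genes called ran from 3525 to 4469 in the GB gate comparison, 3040 to 4774 in SI, 2740 to 4157 and 3042 to 4233 between tissues in IL-25+ and IL-25- cells, and 1050 to 1566 in the interaction. Members called ran from 3 to 5, 3 to 4, 2 to 4, 3 to 7 and 1 to 2 in the same order, and pathway genes from 27 to 39, 23 to 32, 25 to 34, 25 to 36 and 9 to 13.

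Same-numbered libraries of the 2 gates deviated together with r of 0.094, 0.019 and 0.162 in gallbladder and 0.026, -0.002 and -0.028 in intestine, so the numbers were not taken as pairs. With the replicate block nested in tissue, 3975 genes were called in the GB gate comparison, 4147 in SI and 1296 in the interaction, and 6 and 4 members in the GB and SI gate comparisons. Not every library correlated best with its own number: GB-pos 2 did so with GB-neg 1 (0.0957).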

Other observations

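Other genes shared the library pattern of Cxcl5 and Lcn2, at least 4-fold above both other libraries of the group in GB-pos 2 and in GB-neg 2. They were chosen after their values were seen. Gabrp, a GABA receptor subunit, stood at 15.2, 215 and 17.9 CPM in GB-pos 1 to 3, against 277, 2389 and 453 CPM in GB-neg 1 to 3. Tnfaip2, a gene inducible by TNF, stood at 0.203, 10.5 and 0.0538 CPM in GB-pos 1 to 3, against 12.9, 79.1 and 1.27 CPM in GB-neg 1 to 3. Nox1, a subunit of an epithelial oxidase, stood at 0, 0.408 and 0 CPM in GB-pos 1 to 3, against 0.140, 9.69 and 0.130 CPM in GB-neg 1 to 3. Ccl20, a chemokine for CCR6+ cells, stood at 0, 0.186 and 0 CPM in GB-pos 1 to 3, against 0.112, 3.40 and 0.682 CPM in GB-neg 1 to 3. Csf1, the macrophage growth factor, stood at 0.0871, 3.90 and 0 CPM in GB-pos 1 to 3, against 2.5, 13.0 and 0.520 CPM in GB-neg 1 to 3.

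Il17re, a receptor chain for IL-17C, was also chosen after its values were seen. It was higher in gallbladder than in intestine in both gates, by a log2 fold change of 7.09 ± 0.74 in IL-25+ cells and 5.94 ± 0.67 in IL-25- cells (SE; edgeR adjusted p = 3.87e-05 and 6.86e-05).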
